A study of Solanum tuberosum with 22 samples.

Results

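ADH1, an alcohol dehydrogenase of potato (Solanum tuberosum) listed also as ADH2 and ADH3, and PGAM, a phosphoglycerate mutase, were followed through tuber formation in culture and on the plant. They were found by symbol or synonym in the platform annotation. ADH1 had 2 spots and PGAM 4, together 6 of the 32448 spots. They are 2 of the 430 genes counted over the 1630 spots that the annotation lists with 1 gene. Genes of the other spots were not counted. The 2 ADH1 spots carry the same clone, and the 4 PGAM spots carry 2 clones, called A and B here, spotted in duplicate, as judged from shared sequence records in the annotation. All 6 spots had a value on each of the 22 arrays, as did 21.1% of all spots.

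The genes were chosen by their log2 ratios in these samples, ADH1 for its fall with time in culture and its rise with tuber size. The ADH1 changes along these 2 courses are therefore a description, with no test, and the PGAM changes along the same courses are given in the same way.

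Phosphoglycerate mutase interconverts 3-phosphoglycerate and 2-phosphoglycerate in lower glycolysis, the pathway that breaks hexose phosphates down to pyruvate. Where oxygen is short, pyruvate decarboxylase and alcohol dehydrogenase turn pyruvate into ethanol and regenerate the NAD+ that glycolysis needs. ADH transcripts are known from many plants as markers of low oxygen, and the interior of a potato tuber is poor in oxygen. Sucrose entering a growing tuber is split largely by sucrose synthase, whose product UDP-glucose is converted by UDP-glucose pyrophosphorylase.

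Microtubers, the small tubers that form on plantlets in tissue culture, were grown in darkness on sucrose medium without hormones and sampled 2, 5, 10, 20 and 30 days after tuber induction was seen. Plants in a growth chamber gave stolons without tubers and tubers of 1-5, 6-10, 11-15, 16-25 and 26-35 mm. Each time or size class had 2 replicates. In culture these were 2 microtuber populations, and on the plant 2 sets of 10 plants grown one after the other, so an in vivo value is a pool of plants. The label's growth protocol repeats the culture medium for the plant samples. The labels name no cultivar and no transgene. Each array set a sample against a pool of RNA from all stages of its own system, so a value is a log2 ratio of sample to pool and levels cannot be compared between the systems or between genes. Amplified cRNA was labelled for stolons and total RNA for every other sample, so in a comparison with stolons the tissue cannot be told apart from the amplification. In these bulk samples, fewer cells of a type and less RNA per cell cannot be told apart.

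The in vivo replicates were labelled with opposite dyes and ran opposite to each other as deposited, so replicate 2 was multiplied by -1. This direction is likely and not settled by the labels. The ADH1 values are given under both directions as a description, since the gene was chosen by them. In a pool of equal parts of 6 stages the ratios of a gene average 1 and cannot exceed 6. With the direction used, the mean ADH1 ratio over the 6 stages was 1.54 in replicate 1 and 1.66 in replicate 2, with a highest ratio of 3.51. With the other direction the means were 0.872 and 8.04, and the stolon of replicate 2 would stand 44.5-fold above the pool. For ADH1, replicate 1 was thus nearer 1 with the other direction, and the high values of replicate 2 rest on its 1 stolon array. In stolons the storage protein patatin read -6.31 and -6.93 in the direction used, and the inhibitor KTI-C -6.64 and -8.47. The inhibitor API read -3.27 and -8.14 and PIN-II -0.50 and -0.66. Turned the other way, all of these but PIN-II would exceed the ratio of 6, or 2.58 on the log2 scale, in both replicates. Whether the pools held equal parts is not stated. The mean PGAM ratios were 0.715 and 0.856 in the direction used and 1.46 and 1.18 in the other. PGAM lay furthest from the pool at 26-35 mm in replicate 1, at 0.527 in the direction used and 1.90 in the other. With the other direction every in vivo rise below reads as a fall of equal size. In culture all samples carried the same dye, and values were read as sample over pool as deposited, an order that the sources used here do not state. The mean ADH1 ratio over the 5 times was then 0.857 and 0.968, against 1.72 and 1.41 with the ratios turned. If the order were the other one, every fall in culture below would read as a rise of equal size, and every rise as a fall, for ADH1, GAPDH and the mitochondrial genes alike.

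The arrays had values for 52.0% to 65.7% of spots in culture and for 33.1% to 48.9% on the plant, and their small number limits the precision of every value. Replicates of a stage correlated between 0.61 and 0.79 across spots in culture and between 0.36 and 0.63 on the plant. The 4 genes of the tuber list with values on both stolon arrays, among them patatin and the inhibitors KTI-C and API, were below the pool on both. The 4 genes of the green tissue list were above the pool on both. On the microtuber arrays patatin had no value, KTI-C and API had values only at 5 and 30 days of replicate 2, and PIN-II had values on all 10, so the check of tuber identity was thin there. KTI-C went from -2.21 at 5 days to 0.30 at 30 days and API from -2.32 to 0.38.

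In culture ADH1 stayed level from 2 to 5 days and then fell. In replicate 1 most of the fall lay between 10 and 20 days, while replicate 2 fell by similar steps from 5 to 30 days. At 2 days the log2 ratio of ADH1, as the mean of its spots, was 0.30 in replicate 1 and 0.61 in replicate 2, and at 5 days 0.44 and 0.57. At 10 days it was 0.06 and -0.11. Both populations lay above the pool at 2 and 5 days and on either side of it at 10 days, and the 2-day and 5-day replicates overlapped.

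At 20 days ADH1 was -1.56 in replicate 1 and -0.87 in replicate 2. At 30 days it was -1.67 and -1.49. The late samples were thus at about 0.315 to 0.545 of the pool, and the 20-day and 30-day replicates overlapped. The step from 10 to 20 days was -1.61 in replicate 1 and -0.76 in replicate 2, a mean of -1.19 ± 0.60 (SD, n = 2). From 5 to 10 days ADH1 changed by -0.53 ± 0.21 (-0.38 in replicate 1 and -0.68 in replicate 2). From 20 to 30 days it changed by -0.37 ± 0.36 (-0.11 and -0.62). Replicate 1 made nearly all of its fall by 20 days, whereas replicate 2 went on falling. The gap between the 20-day replicates, 0.68, was unusual for that stage, since 3.67% of 18267 spots had one as large.

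Taking 20 and 30 days together against 2 and 5 days, ADH1 changed by -1.98 in replicate 1 and -1.78 in replicate 2, which is a 3.95-fold and a 3.42-fold lower level. The fitted changes of the 2 spots were -1.85 ± 0.15 and -1.91 ± 0.15 (SE). All 4 late arrays lay below all 4 early arrays, as did 21.5% of the 15597 spots with every value. Both spots passed the threshold used here, a Benjamini-Hochberg adjusted p under 0.05 in the limma fit, as did 48.5% of the 19600 spots tested. Since ADH1 was chosen for this change, nothing is read from those counts. In size, 1.04% to 1.19% of the tested spots had a lower change than the ADH1 spots. The D-type cyclin CYCD3.2, of the growing tissue list, moved the same way, from 0.26 and 0.26 at 2 days to -0.64 and -0.61 at 30 days, and the other cyclin of that list, CYCD3.3, from 0.48 and 0.33 to -1.0 and -0.18. PIN-II, a proteinase inhibitor of the tuber list, was 0.59 and 0.47 at 5 days and -1.42 and -1.65 at 30 days, while KTI-C and API, as given above, read higher at 30 than at 5 days. The part of these genes in the ADH1 result was not tested.

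**Figure D1:**
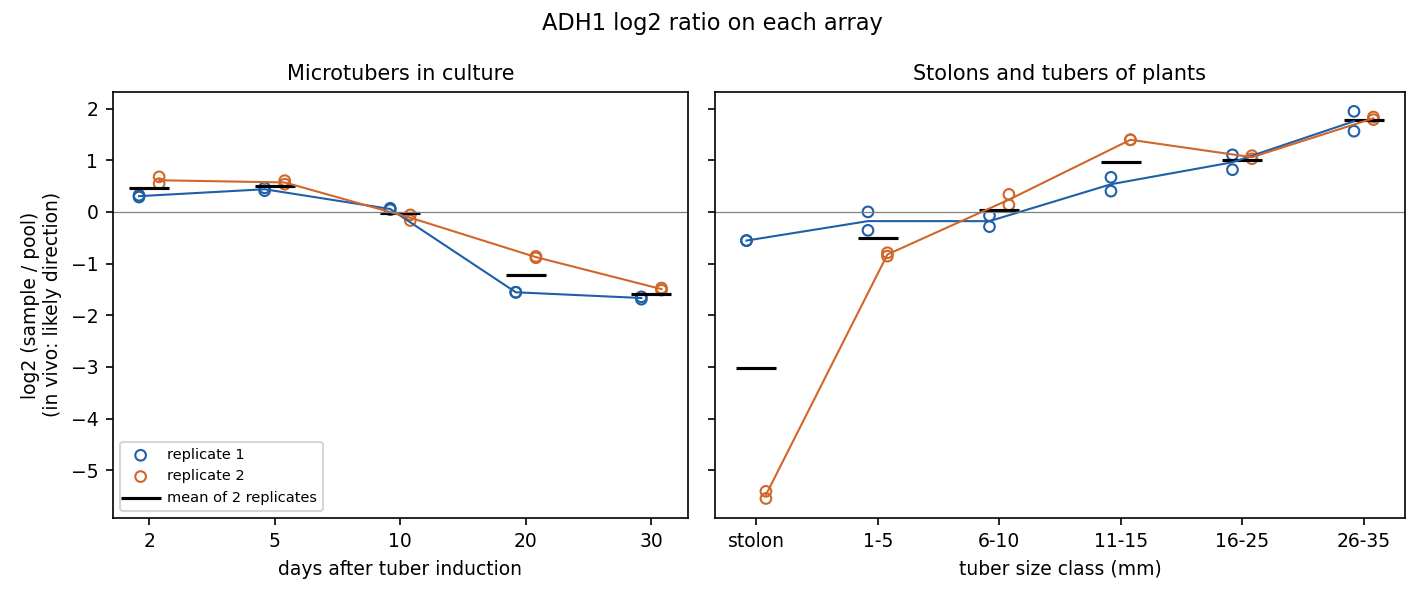
ADH1 log2 ratio of sample to pool on every array, against days after induction for microtubers (left) and against size class for stolons and tubers (right, likely direction). Circles are the 2 spots, lines join the spot means of a replicate and black bars are means of the 2 replicates. In culture the values drop from above 0 to between -1.67 and -0.87 at the late times, and on the plant they climb to about 1.8 in the largest class, with the 2 stolon replicates 4.92 apart.

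PGAM stayed close to the pool through culture. Its mean over 4 spots was 0.06 and 0.10 at 2 days, 0.17 and 0.05 at 5 days and -0.20 and -0.12 at 10 days. It was -0.07 and -0.11 at 20 days and -0.01 and -0.03 at 30 days. The whole course spanned less than 0.4 on the log2 scale, with the lowest mean, -0.16 ± 0.05 (SD, n = 2), at 10 days and the highest, 0.11 ± 0.08, at 5 days.

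The late times differed from the early times by -0.15 in replicate 1 and -0.14 in replicate 2, a 1.11-fold and a 1.10-fold lower level. The clones were not alike in this. Clone A changed by -0.06 and clone B by -0.24, and 1 of the 4 spots, on clone B, passed the threshold, against 48.5% of all spots. Clone B read below clone A on 9 of the 10 microtuber arrays, by 0.19 to 0.31 at 20 and 30 days. Duplicate spots of a clone differed by at most 0.12 in culture, so the gap between clones at the late times was larger than that between duplicates. Whether the clones also detect other copies of the gene is not known here.

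The 10-day samples were tested against the mean of the other 4 times, a contrast independent of that of late against early times. The choice of ADH1 by its fall with time may still have drawn on the 10-day values, so the test is not free of that choice. ADH1 was 0.41 (95% interval 0.03 to 0.78) and 0.45 (0.07 to 0.83) above that mean on its 2 spots, which did not pass the threshold in the limma fit (adjusted p = 0.446 and 0.390, unadjusted p = 0.0361 and 0.0241). As a description, the 10-day level of ADH1 lay nearer the early than the late times. Both intervals lay above 0, but the difference was not established once p-values were adjusted over all tested spots. The difference was 0.68 in replicate 1 and 0.18 in replicate 2. PGAM was -0.24 to -0.13 relative to the mean of the other times on its 4 spots, and 0 of the 4 passed (adjusted p from limma of 0.430 to 0.723). Its intervals ran from -0.45 to -0.03 on the spot with the largest difference and from -0.34 to 0.08 on the spot with the smallest. In all, 0.745% of 19600 spots passed this test.

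On the plant ADH1 read higher in the largest than in the smallest tubers, as did tuber marker genes. In replicate 1 and replicate 2 its mean log2 ratio was -0.18 and -0.82 at 1-5 mm, -0.18 and 0.24 at 6-10 mm and 0.54 and 1.40 at 11-15 mm. It was 0.96 and 1.06 at 16-25 mm and 1.75 and 1.81 at 26-35 mm. The largest tubers were thus at 3.37-fold and 3.51-fold the pool, and were the class in which the replicates differed least.

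From 1-5 to 26-35 mm KTI-C went from -0.43 and -2.57 to 2.70 and 1.09, API from -3.01 and -5.11 to 2.77 and 2.06 and PIN-II from -0.09 and -1.57 to 1.12 and 1.00. Patatin went from -0.16 to 1.33 in replicate 1 and had no value in the largest class of replicate 2. The fifth gene of the tuber list, IIK, had values in replicate 2 alone, from -2.40 at 1-5 mm to 0.30 at 16-25 mm. The part of these genes in the ADH1 result was not tested.

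By mean level the order was stolon, 1-5, 6-10, 11-15, 16-25 and 26-35 mm. Between neighbours in this order the replicates overlapped for stolon and 1-5 mm, for 1-5 and 6-10 mm and for 11-15 and 16-25 mm. They did not overlap between 6-10 and 11-15 mm, a step of 0.94 ± 0.31 (SD, n = 2), and between 16-25 and 26-35 mm, a step of 0.77 ± 0.03. Tubers of 16-35 mm differed from those of 1-10 mm by 1.54 in replicate 1 and 1.73 in replicate 2, a 2.90-fold and a 3.31-fold higher level. All 4 arrays of large tubers lay above all 4 of small tubers, as did 4.53% of the 8011 spots with every value.

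In the planned limma fit of this comparison 0 of 10415 spots passed (0% called, 757 at an unadjusted p under 0.05), the ADH1 spots included, with changes of 1.68 ± 0.88 and 1.59 ± 0.92 (SE). That fit takes its spread from the stolon arrays as well and does not pair the samples by replicate. With the replicate as a block 1.31% of spots were called and the ADH1 spots were not (adjusted p = 0.438 and 0.501 in limma). With the stolon arrays left out of that blocked fit, the standard errors of the ADH1 spots were 0.22 and 0.22. Both spots were then called, where 19.6% of 10597 spots were called and 9.05% were called higher. As the choice of ADH1 used this contrast, nothing is read from that count. In the planned fit 1.21% to 1.42% of spots had a higher change than the ADH1 spots.

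The 2 stolon samples gave very different ADH1 values. The ratio was -0.56 in replicate 1 and -5.48 in replicate 2, that is 0.681 and 0.0225 of the pool. The spots of each array were alike, at -0.56 and -0.56 in replicate 1 and at -5.41 and -5.54 in replicate 2. The gap of 4.92 was matched or exceeded by 11 of the 13176 spots with both stolon values (0.0835%), while the median gap was 0.282. Of these 11, 1 was the second ADH1 spot, 1 was a spot of the protease inhibitor API and 9 had no gene name, and all 11 were lower in replicate 2.

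Patatin was low in both stolon samples, at -6.31 and -6.93, KTI-C at -6.64 and -8.47 and API at -3.27 and -8.14. The lowest ratio in the files is 0.01, or -6.64 on the log2 scale. In replicate 1 KTI-C stood at that lowest ratio and patatin near it, so their gaps between the replicates cannot be set against that of ADH1, whose replicate 1 value lay far above it.

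The size of the ADH1 difference between tubers and stolon therefore rests on 1 array. The mean of the 5 tuber classes exceeded the stolon by 1.13 in replicate 1 and by 6.21 in replicate 2, which is 2.19-fold against 74.0-fold. The mean change over the ADH1 spots was 3.67 with all arrays, 1.21 without the stolon of replicate 2 and 6.13 without that of replicate 1. Both spots passed in the limma fit, against 22.3% of 10415 spots (14.3% higher; 39.6% in either direction with the replicate block), and since the choice of ADH1 counts as having used this contrast, no test is drawn from it. In replicate 2 the 1-5 mm tubers read below the replicate 1 stolon, so tubers and stolons overlapped.

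PGAM ran the other way on the plant, lower in larger tubers. Its mean over 4 spots was 0.05 and -0.17 in stolons, -0.58 and -0.05 at 1-5 mm and -0.46 and -0.13 at 6-10 mm. It was -0.48 and -0.27 at 11-15 mm, -0.71 and -0.34 at 16-25 mm and -0.92 and -0.43 at 26-35 mm. Within each replicate both large classes lay below both small classes, but across replicates the groups overlapped, since replicate 1 read lower than replicate 2 in all 5 tuber classes by 0.21 to 0.53. The plant set and the dye of the sample changed together between the replicates and cannot be told apart.

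Large tubers differed from small ones by -0.30 in replicate 1 and -0.30 in replicate 2, a 1.23-fold lower level in each. Clone A changed by -0.27 and clone B by -0.33. In the planned fit 0 of 4 spots passed, where 0% of all spots did, so nothing particular to PGAM is read from it. With the replicate block and no stolon arrays 0 of 4 passed as well, where 19.6% of all spots did (10.5% lower). Against stolon, tubers changed by -0.68 in replicate 1 and -0.07 in replicate 2, and 0 of 4 spots passed, where 22.3% of all spots did (8.06% lower). With the replicate block 1 of the 4 passed (adjusted p = 0.0474 in limma), where 39.6% of spots did. Across all spots the stolon replicates deviated in the opposite sense to the tuber replicates, so this shared block does not describe the stolons.

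**Figure D2:**
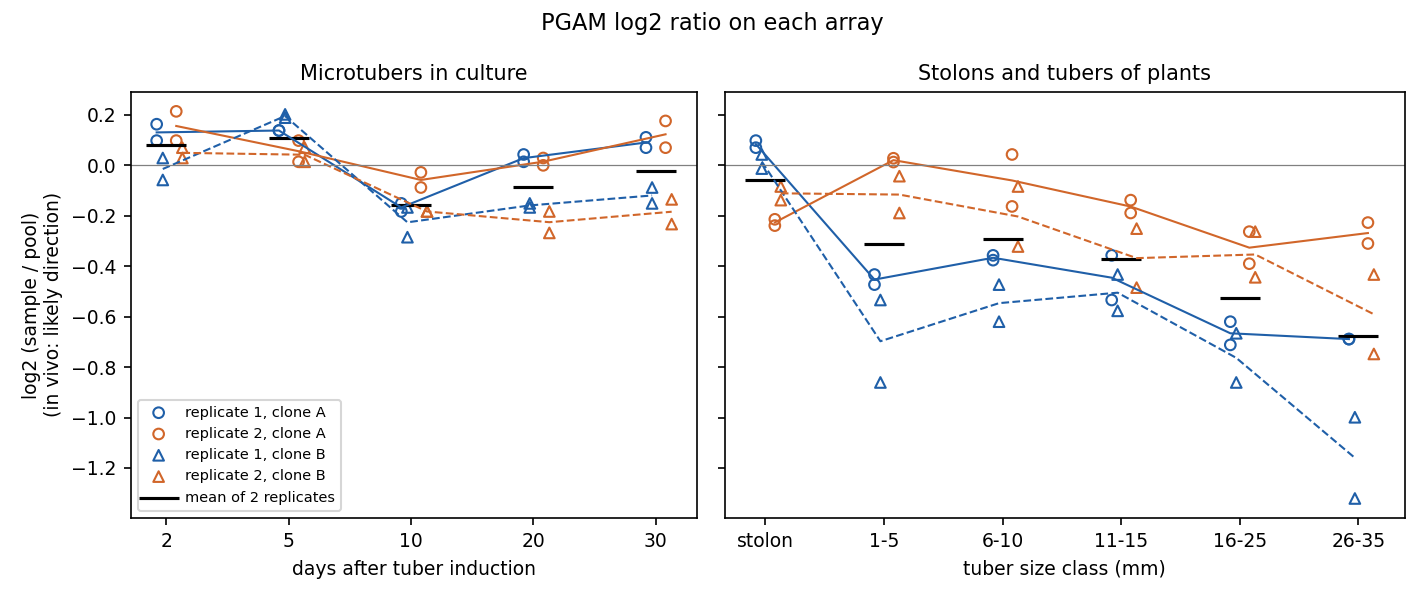
PGAM log2 ratio of sample to pool on every array, by day in culture (left) and by size class on the plant (right, likely direction). Circles are spots of clone A and triangles spots of clone B, lines join the clone means of a replicate and black bars are means of the 2 replicates over both clones. Values in culture lie between -0.285 and 0.214, and on the plant replicate 1 runs below replicate 2 in each tuber class.

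The 11-15 mm class was tested against the mean of the other 4 tuber classes, a contrast independent of that of large against small tubers. The choice of ADH1 by its rise with size may still have drawn on the values of this class, so the test is not free of that choice. ADH1 differed by 0.39 as the mean of its spots, with -0.05 in replicate 1 and 0.82 in replicate 2, and the 95% interval of the first spot ran from -1.89 to 2.64. PGAM differed by 0.082, with 0.19 in replicate 1 and -0.03 in replicate 2. None of the 6 spots passed in the limma fit (adjusted p = 1.00 for each), and 0 of 10415 spots passed at all (0% called, 32 at an unadjusted p under 0.05; with the replicate block also 0, and 115). The spread of the planned fit includes that of the stolon arrays. With the replicate block and no stolon arrays the ADH1 spots differed by 0.38 ± 0.24 and 0.39 ± 0.24 (SE). They did not pass there either (adjusted p = 0.636 and 0.622 in limma). Neither a peak nor a dip of ADH1 in mid-sized tubers was thus detected in these fits. On simulated data the planned fit of this comparison recovered 4% of changes of 1 and 26% of changes of 2, so such a change could easily be missed.

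**Figure D3:**
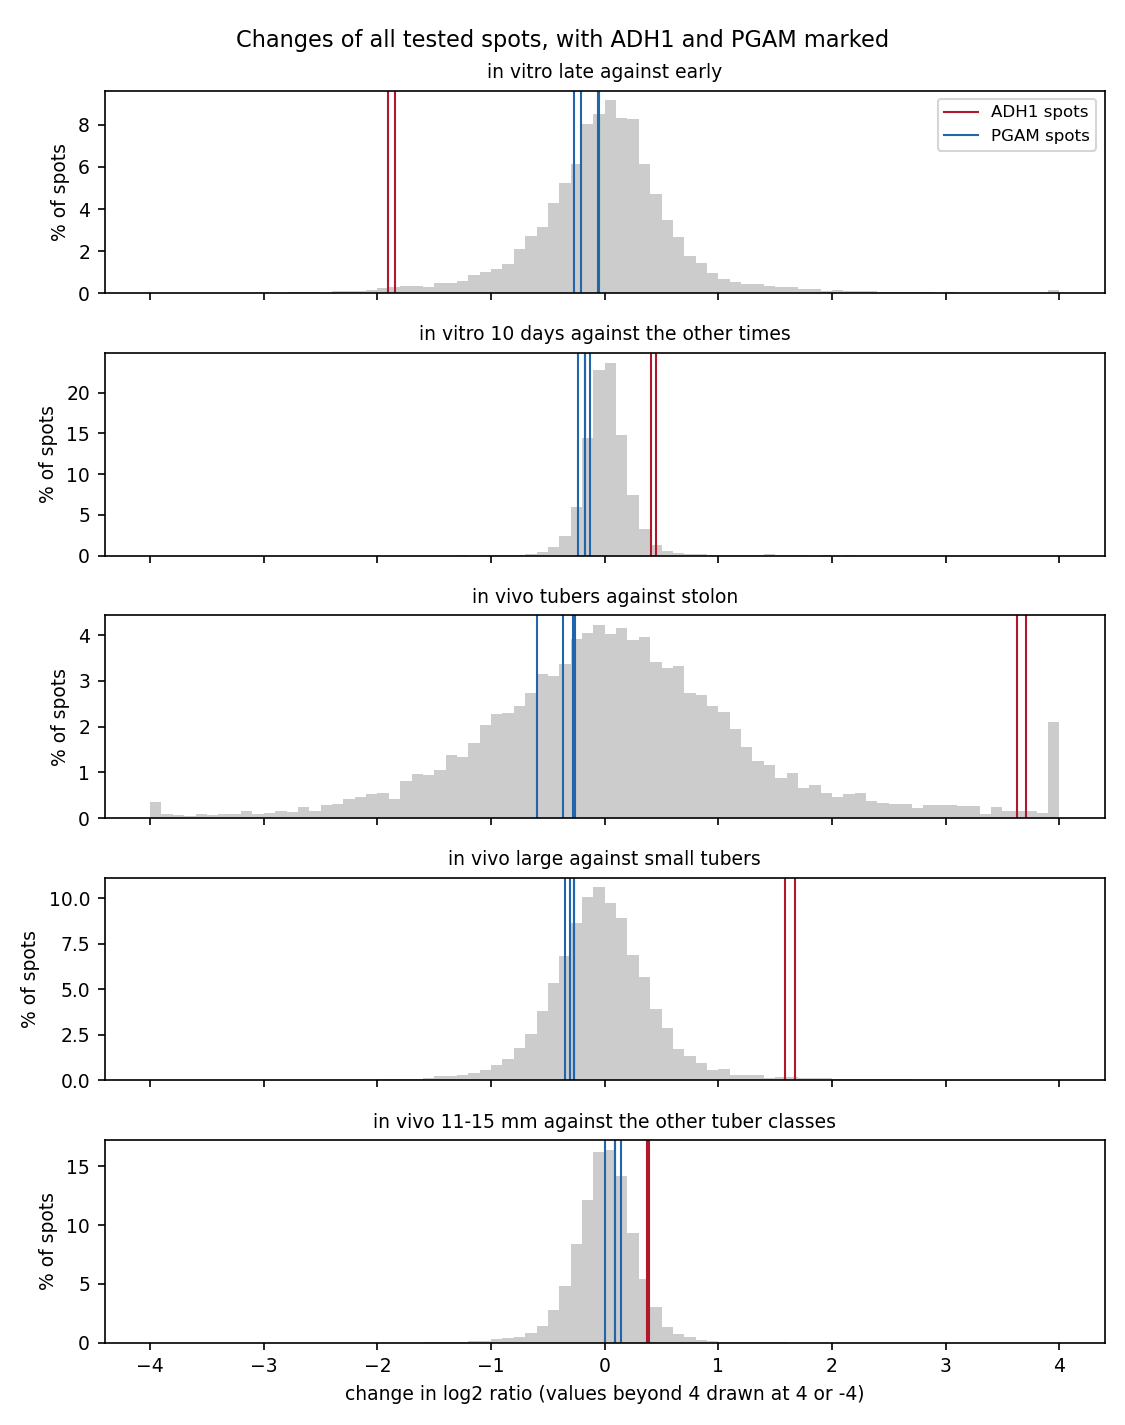
Share of tested spots (vertical axis, percent) by change in log2 ratio (horizontal axis) in 5 comparisons, with the 2 ADH1 spots in red and the 4 PGAM spots in blue. ADH1 lies in the lower tail for late against early microtubers and in the upper tail for both in vivo comparisons that follow size, while PGAM lies within the bulk in all 5. The in vivo panels are in the likely direction.

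Around these 2 genes, 10 of 12 tested spots of the glycolysis list fell in culture, 8 of them of GAPDH. Of the tested spots of fermentation and sucrose use other than ADH1, 0 of 6 passed. Of all 19600 tested spots 48.5% passed in either direction. Only symbols could be matched, so each list is a small part of its pathway. GAPDH, the glyceraldehyde-3-phosphate dehydrogenase, fell on all 8 of its tested spots, by changes of -1.41 to -0.47. It had 16 spots in all, and the others had too few values to be tested in culture. PK, listed also as PKc and read here as the cytosolic pyruvate kinase, fell on both spots, by changes of -0.33 and -0.23. HXKRP1, a hexokinase-related symbol, had 0 of 2 spots past the threshold, with changes of 0.19 and 0.23. The list had a median change of -0.77 and 10 of 12 spots lower, against 24.3% of all spots and a median of 0.02. As 8 of the 12 were spots of GAPDH, both values rest mostly on that gene. PGAM, with changes of -0.27 to -0.05 over its spots, thus read nearer to PK than to GAPDH. The difference between these genes was not tested.

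LDH-2, a lactate dehydrogenase of the other fermentation route, changed by 0.15 and 0.19 in culture and did not pass, where ADH1 fell. UGPase, the UDP-glucose pyrophosphorylase, had 0 of 4 spots past the threshold with changes of -0.14 to 0.33. The sucrose synthase SS16 had too few values to be tested in culture. The list held 6 tested spots with a median change of 0.14, and 0 of the 6 passed, where 48.5% of all spots did. The list for mitochondrial use of pyruvate also holds the uncoupling protein UCP and the alternative oxidase AOX, which do not themselves handle pyruvate. In this list 15 of 18 spots fell, 4 of them of UCP, and 1, of AOX, rose, with a median change of -0.90. Among all spots 24.3% were called lower and 24.2% higher. The malate dehydrogenase mMDH changed by -1.18 and -1.13, fumarase by -1.05 and -1.01, aconitase by -1.02 to -0.80 and PDHE1-A, a subunit of pyruvate dehydrogenase, by -0.51 to -0.11 with 3 of 4 spots past the threshold. The uncoupling protein UCP fell on 4 of 4 spots, by changes of -1.07 to -0.87. The ADH1 spots changed more than any tested spot of the 3 lists in culture. As ADH1 was chosen for this change, nothing is read from that rank.

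On the plant UGPase was the gene of the fermentation and sucrose list with most spots higher in tubers than in stolons. Of the 9 tested spots of that list 4 were higher, 3 of UGPase and 1 of SS16, against 14.3% of all spots, with a median change of 1.53 beside 0.08 for all spots. The 4 UGPase spots differed by 1.53 to 1.90, while SS16 differed by 7.56 on 1 spot and by -0.25 and -0.18 on the others. LDH-2 was -0.50 and -0.46 and did not pass. Of the glycolysis spots 0 of 20 passed and of the mitochondrial spots 0 of 15, where 22.3% of all spots passed in either direction. With the replicate block 5 of the 9 were called higher, 2 glycolysis spots lower and 3 mitochondrial spots lower, where 39.6% of all spots were called. The UGPase stolon values were -0.24 in replicate 1 and -2.26 in replicate 2, so the replicate 2 stolon was the lower one for UGPase too.

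Between large and small tubers 0 of 44 spots of the 3 lists passed in the planned fit, where 0% of all spots did. With the replicate block and without the stolon arrays, 2 spots of HXKRP1, 2 of UGPase and 1 of SS16 were called higher, and 2 of GAPDH, 2 of SS16, 1 of aconitase and 1 of fumarase lower, beside 9.05% higher and 10.5% lower among all spots. The planned changes were 0.76 and 1.06 for HXKRP1, 0.086 to 1.09 for UGPase, -0.87 to 1.32 for SS16 and 0.36 and 0.35 for LDH-2. None of these tested changes reached those of the ADH1 spots, 1.59 and 1.68, but ADH1 was chosen for its rise with size, so nothing is read from that rank.

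**Figure D4:**
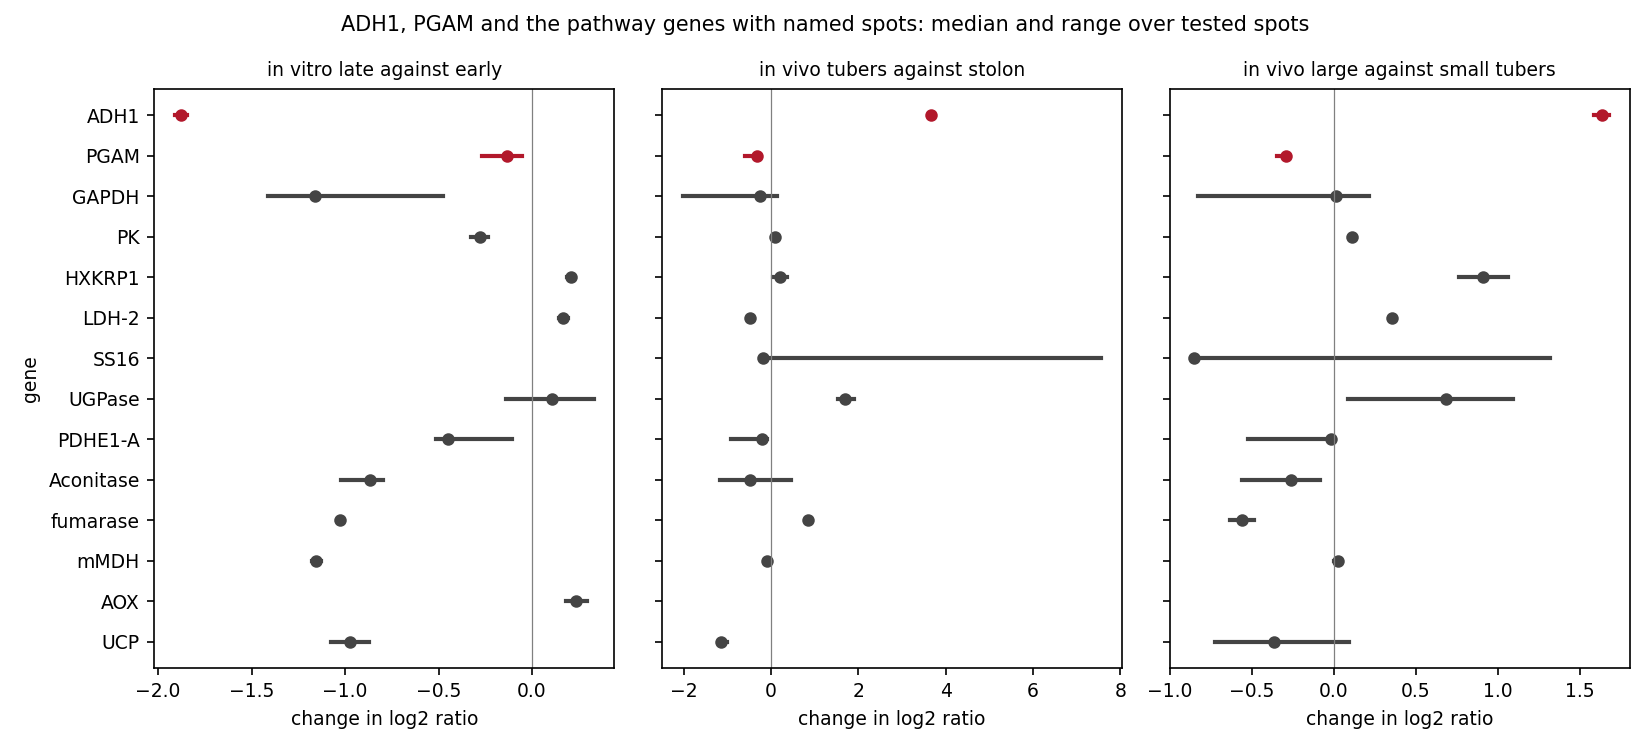
Change in log2 ratio (horizontal axis, a scale of its own in each panel) of ADH1 and PGAM, in red, and of the named genes in the lists for glycolysis, fermentation and sucrose entry, and mitochondrial use of pyruvate, in grey. Dots are medians and bars the range over tested spots, and a gene without a mark had no tested spot. ADH1 is the lowest gene at the left and the highest at the right, in the likely direction, and GAPDH and most mitochondrial genes lie below 0 in culture.

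The genes with patterns most like ADH1 differed between the systems. Over the 10 microtuber arrays, among 171 named genes, they were EI1 (Pearson r = 0.991), the calcium-dependent protein kinase CDPK2 (0.986), GCVT of the glycine cleavage system (0.984), RA215 (0.977) and the pectin esterase PEST2 (0.965). These points share the pool and fall into early and late clusters, so high values come easily, and 7.02% of 15559 spots with every value had r over 0.9 with ADH1. EI1 went from 0.42 and 0.48 at 2 days to -1.47 and -1.12 at 30 days. On the plant EI1 also read higher in tubers of 26-35 mm, at 1.70 and 1.18, than in those of 1-5 mm, at 0.87 and 0.64, but it was higher at 11-15 mm, at 1.45 and 1.43, than at 16-25 mm, at 1.32 and 1.10, and in replicate 2 it was highest at 11-15 mm.

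Over the 12 plant arrays, among 144 named genes, the closest to ADH1 were UDPGP, which is the UGPase gene (r = 0.966), the divinyl ether synthase CYP74D2 (0.951), the starch synthase GBSS-II (0.909), dpeP (0.907) and API (0.906). Without the stolon arrays these values were 0.807, 0.907, 0.813, 0.434 and 0.881, so that of dpeP rests on the stolons. Of 7653 spots 1.66% had r over 0.9.

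PGAM had weaker matches in culture, the chitinase ChtA1 (r = 0.846), HRBP1 (0.795), DD (0.720), LAP (0.718) and RANGAP1 (0.715), and 1 of 15559 spots exceeded 0.9. On the plant its closest were Cyp (0.904), UCP (0.903), the adenine nucleotide carrier AAC (0.901), DD (0.90) and the proton pump PHA1 (0.90). UCP shared with PGAM the lower reading of replicate 1 in tubers, from -2.33 to -1.57 against -0.41 to 0.04 in replicate 2, so these values follow the difference between the replicates as well as tuber size. ADH1 and PGAM themselves had r = 0.418 in culture and r = -0.459 on the plant.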

How the data were processed

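Log2 ratios of 22 arrays with 2 colours were used as the authors deposited them. Per the submitters' processing notes limma was used. Its version, the background correction, the normalization and the spot filters were not given in the sources used. Array medians lay between -0.058 and 0.029. In vivo replicate 2 was multiplied by -1. Genes were named through the platform annotation and the RefSeq table of SolTub_3.0, from which no coordinates are given. No sequence of either gene was used here. Within a system, spots valued on 80% or more of its arrays and on 1 or more of each group entered a least-squares fit of the group means. Variances were moderated in R 4.3.3 by limma 3.58.1, and p-values adjusted by Benjamini-Hochberg over all tested spots. On complete spots p-values differed from limma's own by at most 8e-16.

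The genes and lists were chosen with earlier results of these data known. By rule, all spots of both genes, pathway genes with tested spots and the 5 genes most like each member per system were named. EI1 on the plant, the stolon spots and markers were looked up after their values were seen. On simulated data for 10 days against other times (19600 spots), 18% of changes of 0.5 and 74% of changes of 1 were recovered. For large against small tubers (10415 spots), 12% of changes of 1 and 42% of 2 were recovered. The simulated arrays varied independently and were fitted without the replicate block. These shares therefore do not describe the blocked fits.

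The in vivo replicate number marks plant sets grown in sequence, per the labels, and so pairs the samples. Replicate deviations of tuber classes correlated between 0.85 and 0.93, and those of stolons with tuber classes between -0.47 and -0.37. A replicate block shared by all in vivo arrays therefore describes the tuber classes and not the stolons, which limits the blocked calls against stolon. Alternatives were median centring, quantile normalization, the replicate block, values on every array, each array left out, the other in vivo direction and medians over spots.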

Additional observations from a re-analysis of the deposited data

How the results depend on the processing

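Direction limits every in vivo value. With replicate 1 turned instead, ADH1 read -3.67 for tubers against stolon, -1.63 for large against small tubers and -0.39 for 11-15 mm, and PGAM read 0.38, 0.30 and -0.082. Array number is the other limit.

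With quantile normalization ADH1 changed by -1.72 for late against early times and by 1.48 for large against small tubers. PGAM changed by -0.17 and by -0.26 in those comparisons and by -0.26 for 10 days. Median centring gave PGAM -0.16 in culture and -0.31 for size, and the median over spots -0.14 and -0.29. Quantile normalization called 859 spots for 10 days (146 in the planned fit), 3788 for tubers against stolon (2324) and 1 for size (0). The cause of these shifts was not tested.

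With the replicate block 4126 spots were called for tubers against stolon and 136 for size, and without the stolon arrays 2075 for size and 2 for 11-15 mm. In culture the replicate numbers were not shown to pair the samples, since deviations correlated over 0.1 in 4 of 10 pairs of times, and the block called 202 spots for 10 days. With the block on all arrays, the only call among the 6 spots to change was that of 1 PGAM spot against stolon.

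Without single arrays ADH1 ranged from -2.05 to -1.71 for late against early times, from 0.35 to 0.52 for 10 days, from 1.21 to 6.13 for tubers against stolon, from 1.47 to 1.79 for size and from -0.04 to 0.82 for 11-15 mm. PGAM ranged from -0.18 to -0.12, from -0.22 to -0.14, from -0.49 to -0.27, from -0.43 to -0.17 and from -0.02 to 0.19. The counts of calls ranged from 7650 to 8859, from 28 (without 10-day replicate 2) to 339 (without 2-day replicate 2), from 366 (without stolon replicate 2) to 2152, and stayed at 0 for size and for 11-15 mm. Without 10-day replicate 1 the 10-day count was 62, without 2-day replicate 1 it was 226, and without stolon replicate 1 the stolon count was 1180. A lone array of a stage was assumed to vary like the other stages.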
